A study of Mus musculus with 11 samples.

Results

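Phase II conjugating enzymes attach a water-soluble group to drugs, plant compounds, steroids, bile pigments and products of lipid oxidation. They were taken here as every gene in the deposited table whose symbol begins with Ugt1, Ugt2 or Ugt3, with Gst and a class letter (a, k, m, o, p, t or z) and a digit, or with Mgst or Sult and a digit. The rule found 36 of 11366 genes, of which 9 encode glucuronidation enzymes, 23 glutathione transferases and 4 sulfotransferases. All 36 reached an RPKM (reads scaled to gene length and to the reads in the library) of at least 1 in at least 3 libraries, the condition for entering the tests. The libraries came from wild-type mice: the Control group (n = 3) received standard chow and no treatment, 4 libraries came from mice on a feed with little fermentable fiber (NFF), and the SFB group ate standard chow and was colonized with SFB, read here as segmented filamentous bacteria (n = 4). All 11 libraries were made from sorted live small-intestinal epithelial cells that carried EpCAM and lacked CD45, CD31 and CD44. The labels give no age or strain and do not say whether each library was 1 animal, so the p-values reflect the spread among the libraries alone, which may be technical.

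Glucuronidation is carried out by UDP-glucuronosyltransferases (UGTs) of the endoplasmic reticulum, which use UDP-glucuronic acid. The cytosolic glutathione transferases (GSTs) and the microsomal ones (MGSTs) join glutathione to electrophiles, and the cytosolic sulfotransferases (SULTs) transfer sulfate from the donor PAPS. In the small intestine these enzymes act in absorptive enterocytes, where they form part of first-pass metabolism, and the xenobiotic sensors PXR, CAR, AHR and NRF2 are known to induce several of them.

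The marker lists fitted the epithelial label: all 17 enterocyte markers were in the table, with summed levels of 7649 to 14246 RPKM per library, whereas 3 of 20 leukocyte markers and 3 of 14 endothelial and stromal markers were, with sums of at most 53.1 and 4.44 RPKM. Control 2 and SFB 4 stood apart. In Control 2 the mean log2(RPKM + 1) of genes of the proximal small intestine was 6.04, against 3.38 to 5.05 in the other 10 libraries, and that of distal genes was 4.44, against 4.90 to 7.13. SFB 4 had the highest level of genes of dividing cells, at 4.44 against 1.57 to 3.41, and the lowest enterocyte level, at 7.65 against 8.15 to 8.85. SFB 2 had the lowest level of Paneth cell genes, at 3.50 against 7.64 to 9.89 in the others. Values without one of these libraries are given beside the main results that they move.

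**Figure D1:**
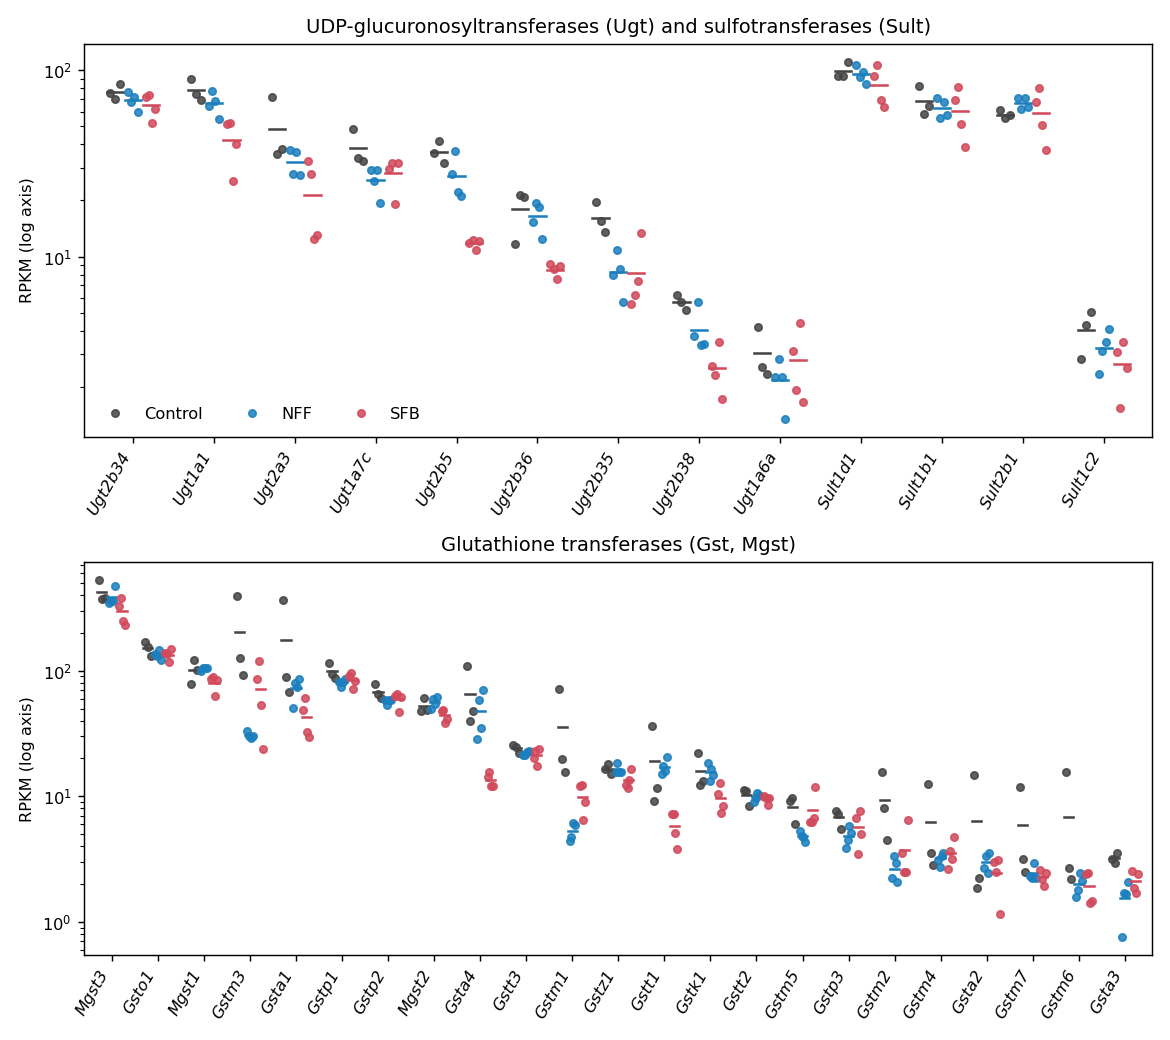
RPKM on a log axis of the 9 Ugt and 4 Sult genes (upper panel) and the 23 Gst and Mgst genes (lower panel) in every library. Points are libraries, short lines are group means and colours are the groups: Ugt2b5 in SFB sits between 10.9 and 12.3, below all Control and NFF libraries, while Gstm3 reaches 391 in Control 2.

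Per length of transcript, the most abundant member was Mgst3, a microsomal transferase with glutathione peroxidase activity, with a Control mean of 427 ± 86.1 RPKM (SD, n = 3), an NFF mean of 386 ± 59.5 and an SFB mean of 297 ± 70.0 (SD, n = 4 each). The glutathione class had a summed level of 1516 ± 559 RPKM for Control (SD, n = 3), 1080 ± 91.6 for NFF and 926 ± 160 for SFB (SD, n = 4 each). The glucuronidation class summed to 321 ± 37.1, 251 ± 30.5 and 190 ± 35.3 RPKM in the same order, and sulfation to 229 ± 15.8, 228 ± 20.1 and 205 ± 57.0. The glucuronidation sums did not overlap between groups for Control (297 to 363) and NFF (206 to 274), or for Control and SFB (143 to 218), but those of NFF and SFB did. As a percentage of the RPKM sum of the library, Control and NFF overlapped, with NFF 2 at 0.106% and Control 4 at 0.103%. On that scale SFB stayed below Control, with its highest value, 0.0892%, in SFB 2. In the glutathione class Control 2 alone reached 2158 RPKM, and Control 4 and Control 5 were at 1257 and 1133.

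Among the glucuronidation enzymes the clearest difference was in Ugt2b5, a member of the UGT2B family of steroid-conjugating enzymes. It lies on chromosome 5 (87124960 to 87140318, minus strand, GRCm38) among a row of Ugt2 genes that is followed by Sult1b1 and Sult1d1. Of the 5 measured Ugt2b genes, its transcript and its promoter are most like those of Ugt2b38. In an alignment of the 250 bases before the annotated starts, 81.5% of columns were identical, against 60.2% between Ugt2b5 and Ugt2b36. The pair is shown because both genes had lower values in SFB and because reads from one can match the other. Sequences are from RefSeq (GRCm38.p6), read on the minus strand from chr5:87140341-87140590 and chr5:87424204-87424453, and capitals mark the 212 bases of each that are identical in that alignment.
Ugt2b5: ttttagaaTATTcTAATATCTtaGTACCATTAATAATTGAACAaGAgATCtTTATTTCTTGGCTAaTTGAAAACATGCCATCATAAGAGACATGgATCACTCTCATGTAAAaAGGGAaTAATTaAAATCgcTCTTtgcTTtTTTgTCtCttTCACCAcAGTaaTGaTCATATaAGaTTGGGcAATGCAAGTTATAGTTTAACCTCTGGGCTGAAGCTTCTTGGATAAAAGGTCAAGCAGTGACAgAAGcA
Ugt2b38: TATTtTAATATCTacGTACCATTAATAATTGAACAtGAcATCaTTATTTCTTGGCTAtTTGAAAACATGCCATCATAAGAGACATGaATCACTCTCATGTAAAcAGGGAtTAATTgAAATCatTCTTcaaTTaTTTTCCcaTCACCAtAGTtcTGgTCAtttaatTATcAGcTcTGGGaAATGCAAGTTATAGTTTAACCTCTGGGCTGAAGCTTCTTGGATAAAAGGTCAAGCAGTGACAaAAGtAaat

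Ugt2b5 fell in SFB relative to Control. It stood at 36.0, 41.5 and 31.8 RPKM in Control 2, 4 and 5, at 27.6, 36.9, 22.3 and 21.2 in NFF 1 to 4, and at 11.8, 12.3, 10.9 and 12.1 in SFB 1 to 4. Every SFB library was below every Control and NFF library, and Control 2 was within the range of the other Control libraries. The log2 difference between SFB and Control was -1.55 ± 0.17 (SE; 95% interval -1.93 to -1.17; limma with Benjamini-Hochberg adjustment over 10482 genes, adjusted p = 0.0044). It was -1.55 without Control 2 (adjusted p = 0.022) and -1.56 without SFB 4 (adjusted p = 0.0047), and it was called in 21 of 22 alternatives (adjusted p = 0.0023 to 0.148). Relative to NFF it was lower by a log2 difference of -1.10 ± 0.16 (SE; adjusted p = 0.0029, and 0.0030 to 0.016 over 22 alternatives). For NFF against Control the value was -0.44 ± 0.17 (adjusted p = 0.896), with overlapping libraries.

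Of the 50-base words in the annotated coding transcripts of Ugt2b5, 41.7% also occur in transcripts of another gene, most often Ugt2b38, and reads from one could have been counted for the other. Ugt2b38 stood at 6.20, 5.70 and 5.17 RPKM in Control, 3.77, 5.67, 3.35 and 3.39 in NFF, and 2.58, 2.31, 3.48 and 1.73 in SFB. Its SFB libraries lay below all Control libraries, with a log2 difference of -0.94 ± 0.19 that missed the threshold (limma adjusted p = 0.068, 0.046 to 0.349 over 22 alternatives).

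Ugt2b36, whose transcripts share 0.31% of these words with another gene, was lower in SFB than in NFF. It stood at 11.7, 21.4 and 21.0 RPKM in Control, 15.4, 19.4, 18.4 and 12.5 in NFF, and 9.12, 8.53, 7.55 and 8.89 in SFB. Control 2 held the lowest Control value, and every SFB library was below every other library. The difference passed the test against NFF (-0.86 ± 0.19 SE; limma adjusted p = 0.022, 0.0042 to 0.078 over 22 alternatives) and missed it against Control (-0.95 ± 0.20; adjusted p = 0.081). The call against NFF was lost without NFF 2 (-0.77), NFF 3 (-0.80) or SFB 3 (-0.81). Against Control it was called without Control 2, where the 2 other Control libraries were both near 21.

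The neighbours in this row differed among themselves. Ugt2b35 had values of 19.6, 15.4 and 13.5 RPKM in Control, 7.92, 10.8, 8.61 and 5.72 in NFF and 5.60, 6.23, 7.37 and 13.4 in SFB, so that both other groups lay below Control, SFB 4 only narrowly. It passed the test in neither comparison (-0.90 ± 0.26 SE in NFF, limma adjusted p = 0.715; -0.97 ± 0.26 in SFB, adjusted p = 0.161), and in SFB it was called without SFB 4. Ugt2a3, a UGT known for bile acid conjugation, was at 71.9, 35.4 and 38.0 RPKM in Control, 37.2, 27.6, 36.2 and 27.5 in NFF and 32.6, 27.6, 12.4 and 13.0 in SFB, highest in Control 2 and lowest in SFB 3 and SFB 4. Ugt2b34 at the start of the row, the most abundant UGT2 at 76.5 ± 6.96 RPKM in Control (SD, n = 3), had 68.9 ± 6.84 in NFF and 64.8 ± 10.1 in SFB (SD, n = 4 each), and these ranges overlapped. Past the end of the Ugt2 genes, Sult1b1 and Sult1d1 overlapped between all groups.

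**Figure D2:**
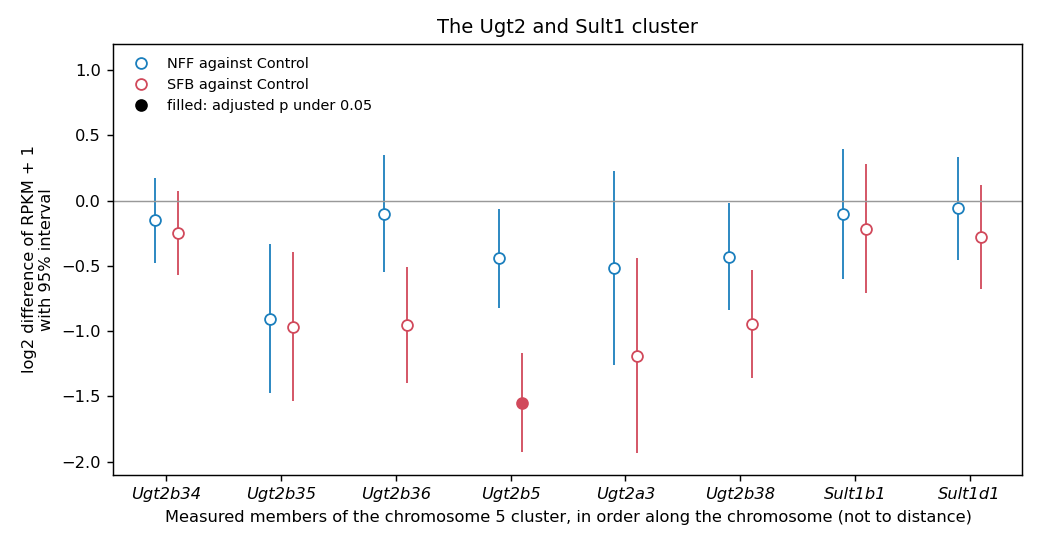
Log2 difference from Control, with its 95% interval, of the 8 measured conjugating enzyme genes in the chromosome 5 row, in their order along the chromosome. Blue is NFF, red is SFB and a filled point passed the test: Ugt2b5 in SFB is the only filled point, at -1.55, and the genes at the ends of the row, Ugt2b34 and Sult1d1, have intervals that include 0.

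The UGT1 genes share their last exons at 1 locus on chromosome 1 and differ in their first. Accordingly 58.2%, 96.0% and 54.2% of the 50-base words of Ugt1a1, Ugt1a6a and Ugt1a7c also occur in another gene's transcripts, and the split of reads among them is uncertain. Ugt1a1, the bilirubin-conjugating enzyme, stood at 89.9, 74.9 and 68.9 RPKM in Control, 64.2, 77.3, 68.7 and 55.0 in NFF and 51.5, 52.2, 25.6 and 40.4 in SFB. Its SFB libraries lay below all others, with a log2 difference from Control of -0.91 ± 0.23 (SE) that was not called (limma adjusted p = 0.128). Ugt1a7c, active on phenols, had 48.5, 34.0 and 32.5 RPKM in Control, 29.3, 25.4, 29.2 and 19.3 in NFF and 29.6, 31.6, 19.3 and 31.9 in SFB. Here both groups were just below Control, and the difference was not called in NFF (-0.55 ± 0.21; adjusted p = 0.896) or SFB (-0.44 ± 0.21; adjusted p = 0.439), where it was -0.26 without Control 2.

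The glutathione transferases of class mu lie together on chromosome 3, from Gstm5 at 107895821 to Gstm4 at 108044894 (GRCm38), and 7 of them were measured. They conjugate a broad range of electrophiles. For Gstm1 and Gstm3, which had the largest differences between NFF and Control among all members, the 250 bases before the most upstream RefSeq start are shown (GRCm38.p6, minus strand, chr3:108017974-108018223 and chr3:107969175-107969424). Capitals mark the letters CAAAGT, a core of sites for HNF4, and GCGTG, the core bound by AHR.
Gstm1: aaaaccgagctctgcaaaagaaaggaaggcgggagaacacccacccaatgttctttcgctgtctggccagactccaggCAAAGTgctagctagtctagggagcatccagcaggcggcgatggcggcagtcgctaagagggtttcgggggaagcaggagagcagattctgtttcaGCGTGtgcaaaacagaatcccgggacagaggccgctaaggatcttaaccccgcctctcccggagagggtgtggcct
Gstm3: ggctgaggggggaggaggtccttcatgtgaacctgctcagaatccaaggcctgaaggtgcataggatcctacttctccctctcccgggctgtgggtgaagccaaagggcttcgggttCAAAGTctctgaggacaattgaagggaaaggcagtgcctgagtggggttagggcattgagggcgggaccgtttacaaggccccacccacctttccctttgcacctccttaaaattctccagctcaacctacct

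These windows were searched on both strands for 4 motifs, and 34 of the 36 members had at least 1 window in the RefSeq table, 44 windows in all. TGACNNNGC, the antioxidant response element core used by NRF2, was in 9.09% of the members' windows and in 10.2% of all 32851 windows of this length. GCGTG was in 22.7% against 28.2%, the HNF1 core GTTAAT in 11.4% against 6.43%, and CAAAGT in 20.5% against 12.6%. TGACNNNGC and GCGTG can overlap on opposite strands. Neither Ugt2b5 nor Ugt2b38 held any of these letters in its window. Gstm1 held GCGTG 76 bases and CAAAGT 172 bases before its start, and Gstm3 held CAAAGT 133 bases before its start.

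Gstm1 and Gstm3 had lower values in NFF than in any Control library, but neither was called. Gstm1 stood at 71.8, 19.9 and 15.7 RPKM in Control 2, 4 and 5, at 4.42, 4.71, 6.09 and 5.87 in NFF and at 12.0, 12.2, 6.44 and 9.01 in SFB. Gstm3 stood at 391, 126 and 91.8 RPKM in Control, at 33.1, 30.1, 29.1 and 30.4 in NFF and at 86.6, 120, 53.3 and 23.8 in SFB. For both genes Control 2 was far above the other Control libraries, the NFF libraries lay close together, and no NFF library reached the lowest Control value. The log2 difference between NFF and Control was -2.24 ± 0.41 (SE; 95% interval -3.13 to -1.35) for Gstm1, with limma adjusted p = 0.430. For Gstm3 it was -2.40 ± 0.53 (95% interval -3.55 to -1.25; adjusted p = 0.523).

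Without Control 2 these differences were -1.59 for Gstm1 (limma adjusted p = 0.191) and -1.78 for Gstm3 (adjusted p = 0.599). Both were called when Control 2, SFB 2 and SFB 4 were left out together, at the same differences (adjusted p = 0.032 and 0.020), and with the level of dividing cell genes as a covariate, at -2.57 and -3.12 (adjusted p = 0.029 and 0.0051). Over 22 alternatives the adjusted p ran from 0.029 to 0.993 for Gstm1 and from 0.0051 to 1.0 for Gstm3. In SFB, Gstm1 was below all Control libraries (-1.47 ± 0.41 SE; limma adjusted p = 0.169), or -0.81 without Control 2, and above all NFF libraries (0.77 ± 0.38; adjusted p = 0.222), and the latter difference was called without Control 2, a library that bears on this contrast through the residual spread alone (adjusted p = 0.029, in a range of 0.029 to 0.368 over 22 alternatives).

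Across the 7 class mu genes the median log2 difference was -0.97 in NFF, with 7 of 7 below 0, against 51.7% of all genes, and 4 wholly below Control (Gstm1, Gstm2, Gstm3 and Gstm5), against 4.42%. Without Control 2 the median was -0.58 with 6 of 7 below 0, against 5813 of 10482 genes. Gstm2 was at 15.7, 8.11 and 4.45 RPKM in Control and 2.22, 3.34, 2.95 and 2.07 in NFF, and Gstm5 at 9.11, 9.62 and 6.05 in Control and 5.33, 4.80, 4.76 and 4.30 in NFF. Gstm4, Gstm6 and Gstm7 had one high library, Control 2, at 12.5, 15.6 and 11.9 RPKM, and were between 1.41 and 4.78 RPKM in all others. In SFB the class mu median was -1.01, or -0.25 without Control 2, when Gstm3 was at -0.82 in place of -1.44 and Gstm4 turned from -0.46 to 0.11.

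Among the class alpha transferases Gsta4, which conjugates 4-hydroxynonenal and other products of lipid peroxidation, fell in SFB. On chromosome 9 (78182774 to 78209349, GRCm38), it stood at 109, 39.8 and 48.2 RPKM in Control 2, 4 and 5, at 28.4, 58.4, 34.9 and 70.0 in NFF and at 14.1, 15.5, 12.1 and 12.0 in SFB. No SFB library reached the lowest value of the other groups, and Control 2 was again the highest. The log2 difference from Control was -2.07 ± 0.35 (SE; 95% interval -2.84 to -1.31; limma adjusted p = 0.044) and that from NFF was -1.68 ± 0.33 (adjusted p = 0.012). The call against Control did not hold without Control 2 (-1.64; adjusted p = 0.087), without Control 5, NFF 2, NFF 3, SFB 2 or SFB 3 (-2.22, -2.07, -2.07, -2.14 and -2.03), or with the distal minus proximal level as a covariate (-1.72; adjusted p = 0.105). It was also lost with a pseudocount of 3, median ratio scaling, a fit of only the 2 groups or the replicate number as a block. The same held without Control 2, SFB 2 and SFB 4 together. The distal minus proximal level sets Control 2 apart, so that covariate is not a check separate from leaving Control 2 out. The gene was called against Control in 10 of 22 alternatives, and the limma adjusted p ran from 0.019 to 0.298. The call against NFF was lost without NFF 2 (-1.55; adjusted p = 0.0503) and with the dividing cell level as a covariate (-1.09; adjusted p = 0.113), over a range of 0.0032 to 0.113.

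Gsta1, a neighbour of Gsta4 with activity on peroxides, was at 368, 89.3 and 67.8 RPKM in Control, 50.8, 79.6, 73.9 and 85.2 in NFF and 48.4, 61.2, 32.6 and 29.4 in SFB. All SFB libraries were below all Control libraries, with a log2 difference of -1.65 ± 0.48 (SE; limma adjusted p = 0.190), or -0.90 without Control 2 (adjusted p = 0.371). Of this gene, 89.7% of the 50-base words occur in other genes, so reads could have been split. Gsta3, at 3.18, 2.93 and 3.56 RPKM in Control, was lower in every NFF library (0.754, 1.69, 1.65 and 2.09) and every SFB library (2.53, 1.84, 1.68 and 2.39). It was called in neither comparison (-0.76 ± 0.19 with adjusted p = 0.566, and -0.45 ± 0.19 with adjusted p = 0.364).

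Gstt1, a class theta transferase that acts on small halogenated compounds, was lower in SFB than in NFF. It stood at 36.5, 9.23 and 11.7 RPKM in Control, 15.0, 17.5, 15.8 and 20.6 in NFF and 7.29, 7.16, 5.06 and 3.81 in SFB. The SFB libraries lay below all others, Control 2 above all others, and NFF between Control 2 and the remaining Control libraries. The log2 difference between SFB and NFF was -1.44 ± 0.34 (SE; 95% interval -2.18 to -0.70; limma adjusted p = 0.028, 0.0015 to 0.269 over 22 alternatives). The call did not hold without NFF 2 (-1.43), NFF 3 (-1.48), NFF 4 (-1.36), SFB 3 (-1.40) or SFB 4 (-1.28), and it was -0.57 with the dividing cell level as a covariate. Against Control the difference was -1.35 ± 0.37 (adjusted p = 0.161), or -0.77 without Control 2. The neighbouring genes Gstt2 and Gstt3 had overlapping groups, with means of 9.45 to 10.2 and 21.1 to 24.1 RPKM.

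No other glutathione transferase was called. Gstk1, the mitochondrial and peroxisomal kappa enzyme, stood at 22.2, 12.3 and 13.1 RPKM in Control, 18.5, 13.2, 16.4 and 14.6 in NFF and 10.5, 12.7, 7.37 and 8.29 in SFB. Its SFB libraries lay below all NFF libraries (-0.65 ± 0.20 on the log2 scale, SE; limma adjusted p = 0.073), and the difference was called without Control 2 and without SFB 2. Gsto1, an omega-class enzyme with thiol transferase and dehydroascorbate reductase activity, had means of 151 ± 19.9 RPKM for Control (SD, n = 3), 134 ± 9.41 for NFF and 135 ± 13.3 for SFB (SD, n = 4 each).

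Gstp1, of class pi, ranged from 87.1 to 114 RPKM in Control, 74.1 to 86.3 in NFF and 71.0 to 95.4 in SFB, and 51.0% of its words are shared with Gstp2, which ranged from 60.3 to 78.4, 52.9 to 59.0 and 46.9 to 65.6. For both genes the NFF libraries lay just below Control. Gstz1, the maleylacetoacetate isomerase of tyrosine breakdown, had means of 16.4 ± 1.47, 16.2 ± 1.38 and 13.5 ± 2.17 RPKM, and Mgst1 means of 100.4 ± 21.3, 104 ± 2.33 and 80.4 ± 11.9 (SD). Mgst1 and Mgst2 in SFB lay below all NFF libraries without being called. Gstp3, Gsta2 and Ugt1a6a were scarce, between 1.14 and 7.61 RPKM apart from Gsta2 in Control 2 (14.8), and the SFB difference of Gsta2 turned from -0.67 to 0.13 without that library.

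None of the 4 sulfotransferases was called in any comparison. Sult1d1, which sulfates catecholamines and phenols, was at 93.4, 93.0 and 111 RPKM in Control, 107, 91.9, 97.2 and 84.4 in NFF and 92.6, 106, 69.6 and 63.4 in SFB. Sult1b1, active on phenols and thyroid hormones, ranged from 58.1 to 81.8 RPKM in Control, 55.4 to 70.6 in NFF and 38.8 to 81.0 in SFB. In both genes SFB 4 was the lowest library and SFB 2 was within the Control range, so that the SFB group held most of the spread. Sult2b1, the cholesterol sulfotransferase, was at 60.8, 55.4 and 57.2 RPKM in Control, 70.8, 62.2, 71.0 and 63.4 in NFF and 67.1, 80.6, 50.6 and 37.2 in SFB. It was the only member whose NFF libraries were all above Control (0.21 ± 0.21 on the log2 scale, SE; limma adjusted p = 0.900), and the sign turned with the dividing cell level as a covariate (-0.033). The 95% intervals of the SFB difference were -0.67 to 0.12 for Sult1d1, -0.71 to 0.28 for Sult1b1 and -0.49 to 0.43 for Sult2b1, and the scarce Sult1c2, at 1.55 to 5.04 RPKM, had -0.95 to 0.01.

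**Figure D3:**
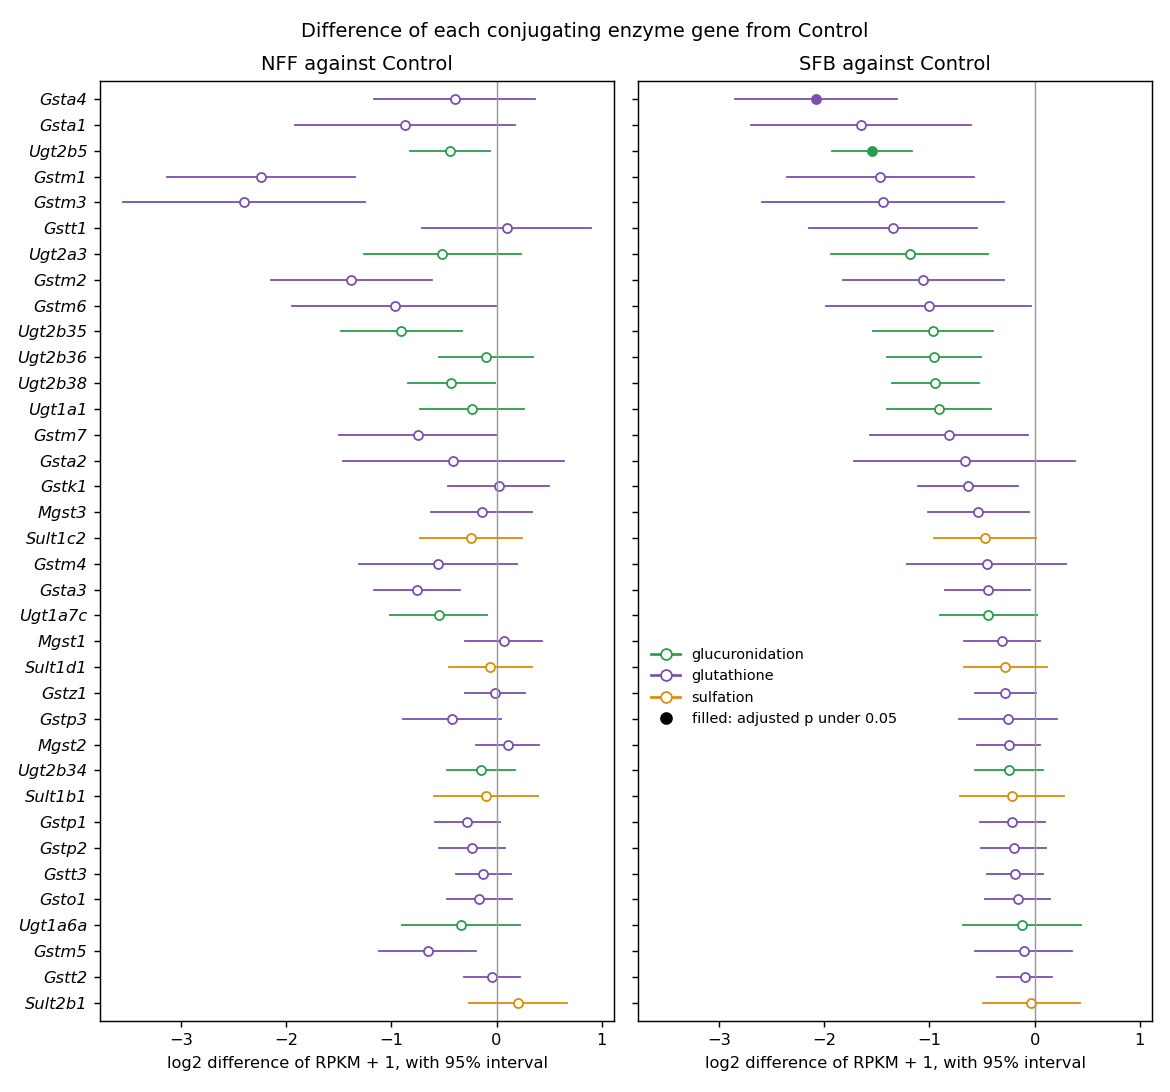
Log2 difference of each of the 36 genes from Control, with its 95% interval, for NFF (left) and SFB (right), in the order of the SFB values and coloured by class. Filled points passed the test: Gsta4 and Ugt2b5 in SFB are filled and no gene is in NFF, where Gstm1 and Gstm3 have the lowest values, -2.24 and -2.40.

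Over all 36 members, SFB against Control had 2 genes called lower (Ugt2b5 and Gsta4) and 0 called higher by limma with Benjamini-Hochberg adjustment, against 0.0763% and 0.124% of all tested genes. In that comparison 36 of 36 values were below 0, against 47.5% of all genes, with a median of -0.46 against 0.01. Of the members, 12 lay wholly below Control, against 6.05% of all genes, and 0 wholly above, against 3.66%. By class the median was -0.94 for the 9 glucuronidation genes, 7 of them wholly below Control, -0.46 for the 23 glutathione genes with 5 wholly below, and -0.25 for the 4 sulfation genes with 0. Without Control 2, 32 members were below 0, against 5787 of 10482 genes, and the class medians were -0.83, -0.28 and -0.20. Without SFB 4 these medians were -0.90, -0.45 and -0.09. In that fit 34 members were below 0, against 5854 of 10482 genes, and 3 were called lower, against 41 genes.

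For NFF against Control, 0 of 36 members were called, as were 0% of all 10482 genes, while 9 members and 505 genes had an unadjusted p under 0.05. Values were below 0 for 31 members, against 51.7% of all genes, and the median was -0.31 against -0.01. In this comparison 9 members lay wholly below Control, against 4.42% of all genes, and 1 wholly above, against 5.35%. Without Control 2, 26 members were below 0 with a median of -0.14, against 5813 of 10482 genes and a median of -0.03. The glucuronidation class still had 9 of 9 below 0 with a median of -0.37, while the glutathione class moved from -0.40 to -0.10. The NFF and SFB comparisons share the Control libraries, so their values are not independent.

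For SFB against NFF, in which diet and colonization both differ, 4 members were called lower (Ugt2b5, Gsta4, Ugt2b36 and Gstt1), against 4.2% of all genes, and 0 higher, against 3.14%, or 7.34% in either direction. Values were below 0 for 24 members and above for 12, against 47.3% of all genes below, with a median of -0.10. With the dividing cell level as a covariate 16 were below and 20 above, and the median was 0.04. In that fit 6708 of 10482 genes were below 0, with a median of -0.105 over all genes. The dividing cell level did not overlap between NFF and SFB, so this fit cannot cleanly separate it from the group difference. Wholly separate libraries were lower for 8 members, against 9.91% of all genes, and higher for 2 (Gstm1 and Gstm5), against 10.1%. The count rested on single libraries: 1 member was called lower without NFF 2, 2 without NFF 3 and 2 without SFB 3. Over all genes, calls in either direction were 242, 426 and 472 in these fits, against 769.

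**Figure D4:**
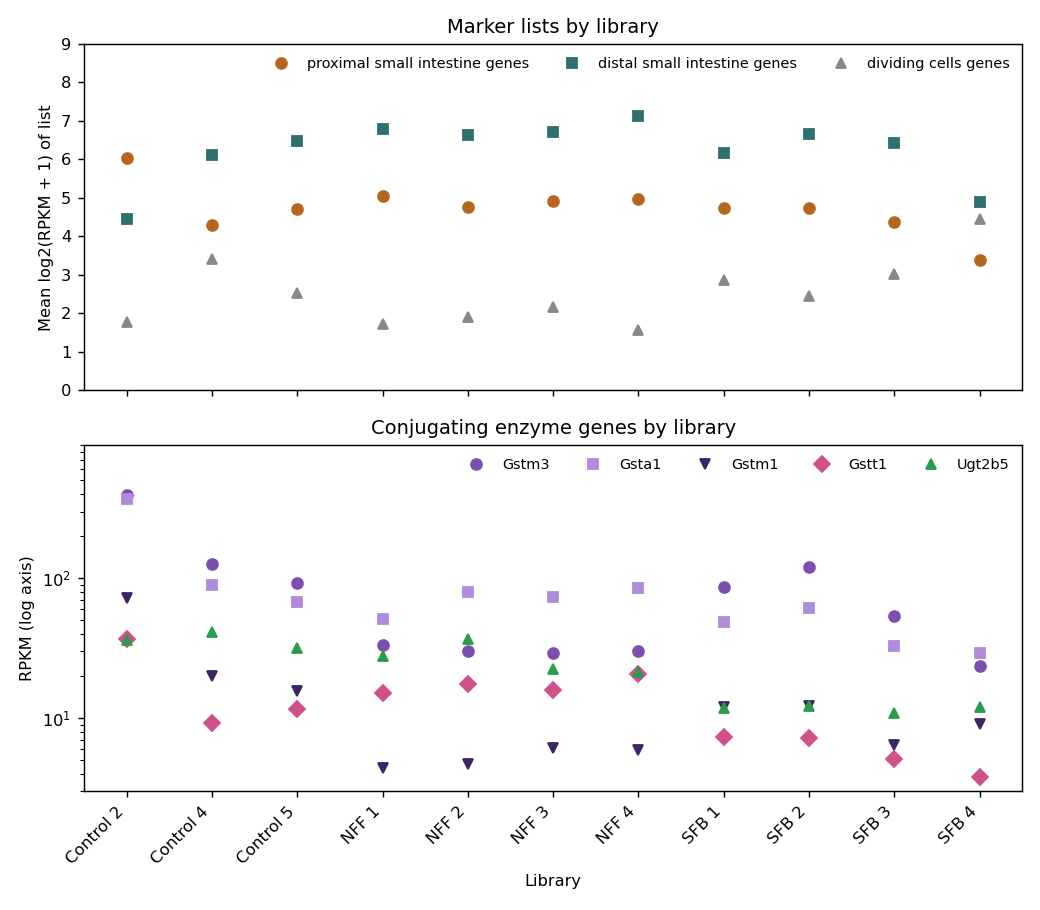
Upper panel, mean log2(RPKM + 1) of genes of the proximal and distal small intestine and of dividing cells in each library; lower panel, RPKM on a log axis of 5 conjugating enzyme genes in the same libraries. Control 2 has the highest proximal level, 6.04, and the highest Gstm3, Gsta1, Gstm1 and Gstt1, whereas its Ugt2b5, at 36.0, lies between those of Control 4 and Control 5.

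Control 2 was the highest of the 11 libraries for 24 of the 36 members, and this was uneven across families. The share of all genes that were highest in Control 2 was not computed, and its RPKM sum, 302661, was the largest of the libraries. The Control 2 value was at least 3 times the mean of Control 4 and Control 5 for 8 genes, all of them glutathione transferases: 5 of class mu, 2 of class alpha (Gsta1, 4.69-fold, and Gsta2, 7.22-fold) and Gstt1 (3.50-fold). Of the 50-base words of Gsta2, 46.8% occur in other genes, most often Gsta1, so reads of Gsta1 could have been counted for Gsta2. In the glucuronidation class the ratio ran from 0.55 for Ugt2b36 to 1.96 for Ugt2a3, and in the sulfation class from 0.61 to 1.34. Control 2 also had the highest proximal and the lowest distal gene level, as given above. The part of position along the gut in these ratios was not tested. With the distal minus proximal level as a covariate, Ugt2b5 in SFB against Control was called at -1.54 (limma adjusted p = 0.027), and the class mu median in NFF was -0.55. Only in Control 2 was the proximal level (6.04) above the distal one (4.44), so this covariate largely marks that library. The fit came close to leaving Control 2 out, where that median was -0.58. It cannot separate gut position from other traits of Control 2. The distal genes themselves had 12 of 12 values above 0 in NFF, with a median of 0.83, or 9 of 12 and 0.28 without Control 2. Of 25 genes of dividing cells, 25 were below 0 in NFF (median -0.72, or -1.13 without Control 2) and 25 above 0 in SFB (median 0.64, or 0.21 without Control 2 and 0.23 without SFB 4), with none called against Control. Calls over all genes were 0% in NFF against Control and 0.2% in SFB against Control. They were most frequent in SFB against NFF, at 7.34%, as were called members, at 4 of 36. There 25 of 25 genes of dividing cells were above 0 with a median of 1.35, 4 were called higher and 20 lay wholly above NFF. With their level as a covariate the Gsta4 and Gstt1 calls in that comparison were lost. That level was 1.57 to 2.16 in NFF and 2.44 to 4.44 in SFB, without overlap. A fit with it therefore cannot cleanly separate dividing cells from the group difference. The part of dividing cells in the results was not tested.

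Markers of secretory and tuft cells had lower values in SFB than in Control, where 0 were called. There 13 of 13 tuft, 12 of 12 Paneth, 12 of 12 goblet and 9 of 9 enteroendocrine markers were below 0, with medians of -1.17, -2.52, -0.86 and -1.33. The Paneth median was -1.06 without SFB 2, the enteroendocrine median was -0.43 without Control 2, and 4 tuft markers were called lower without SFB 4. Against NFF, 12 of 13 tuft markers were called lower, as were 1 Paneth, 0 goblet and 2 enteroendocrine markers; without SFB 4 these counts were 10, 0, 0 and 0. In NFF against Control the medians were 0.43, -0.72, 0.03 and 0.21, and that of the enteroendocrine markers was 0.76 without Control 2. Summed tuft markers ran from 81.5 to 157 RPKM in Control and 11.03 to 57.7 in SFB, and those of Paneth cells from 15676 to 27660 and from 424 to 15333, with SFB 2 at the low end.

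For the 14 proximal and 17 enterocyte markers the SFB medians against Control were -0.71 and 0.06 with 0 called, and the proximal one was -0.08 without Control 2. Against NFF, 13 of 17 enterocyte markers were below 0 and 2 were called lower, the sucrase Sis (-1.27) and the keratin Krt18 (-1.05), or 1 without SFB 4. The proximal marker Bche (-1.24) and the distal marker Cubn (-1.93) were called lower in that comparison, and the leukocyte marker Itgam higher (1.41). Of the 3 leukocyte markers, however, 2 lay wholly below NFF, and the median of that list was -0.69. For the 3 each of leukocyte and of liver or colon markers the SFB medians against Control were -0.28 and -0.08 with 0 called, and the 1 tested stromal marker was at 0.34. The part of these cell types in the results was not tested. In these bulk libraries fewer cells of a type and less RNA per cell cannot be told apart.

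Genes that supply, sense or complement these enzymes were read from lists in the same fit. Of 10 genes for UDP-glucuronic acid, 12 for glutathione and 9 for PAPS, none was called in NFF or SFB against Control, and the SFB medians were 0.04, -0.12 and -0.08. The genes of lowest p among them included Hk2, a hexokinase, at 14.3 ± 4.70 RPKM in SFB (SD, n = 4) against 7.23 ± 0.76 in Control (SD, n = 3; 0.85 on the log2 scale, limma adjusted p = 0.240), and Bpnt1, a phosphatase that clears the by-product of sulfation, at -0.55 in NFF (adjusted p = 0.896). Against NFF, Gsr, glutathione reductase, was higher in SFB at 323 ± 36.5 against 147 ± 26.1 RPKM (SD, n = 4 each; 1.14 on the log2 scale, limma adjusted p = 0.014), G6pdx, which makes NADPH, by 0.54 (adjusted p = 0.049), and Hk2 by 0.99 (adjusted p = 0.039). In that comparison 8 of the 12 glutathione genes were below 0, with a median of -0.18. Without SFB 2, without SFB 4 or with the dividing cell covariate, 1 glutathione gene was called higher in place of 2. In each of these fits 0 UDP-glucuronic acid genes were called, and with the covariate 1 glutathione gene was called lower. Of 27 tested regulators, 0 were called against Control in either group, with medians of 0.01 and -0.09, and Nfe2l2, which encodes NRF2, had means of 61.7 ± 13.6 RPKM for Control (SD, n = 3), 56.2 ± 2.43 for NFF and 45.2 ± 7.70 for SFB (SD, n = 4 each). Against NFF, Ppara, a fatty acid sensor, and Mafg, a small MAF partner of NRF2, were lower in SFB by log2 differences of -0.60 and -0.55 (adjusted p = 0.013 and 0.025).

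Phase I oxidation genes, which prepare many substrates for conjugation, had 24 of 26 values below 0 in SFB against Control with a median of -0.87, or -0.54 without Control 2, and 12 wholly below Control, against 6.05% of all genes, none called. Against NFF 8 of the 26 were called lower, against 4.2% of all genes, and 0 higher, and with the dividing cell covariate 5 were lower and 3 higher. They were led by Cyp2d26, a cytochrome P450, at 9.93 ± 6.76 against 60.2 ± 6.43 RPKM (SD, n = 4 each; -2.76, limma adjusted p = 0.0094), and Adh1, an alcohol dehydrogenase, at 17.6 ± 11.6 against 94.7 ± 21.6 (-2.56, adjusted p = 0.017). NRF2 targets outside conjugation were split between SFB and NFF, 3 called higher, among them the glutathione peroxidase Gpx2 (1.15), and 3 lower, among them the carbonyl reductase Cbr1 (-0.98), and the count lower was 0 without SFB 2. With the dividing cell covariate 0 were called higher and 2 lower. In NFF 13 of these 16 genes were below 0 with a median of -0.17 and 5 wholly below Control, and Nqo1, a quinone reductase, had means of 46.0 ± 2.76 RPKM for Control (SD, n = 3) and 26.7 ± 2.30 for NFF (SD, n = 4), without a call (limma adjusted p = 0.444). Conjugate efflux transporters had 3 of 12 called lower in SFB against NFF, against 4.2% of all genes, and 0 called against Control. Among the 3 were Abcb1a, which encodes P-glycoprotein (-1.02), and Abcc6 (-1.01). Against NFF 7 of the 12 were below 0 with a median of -0.01. The count called lower was 2 without SFB 2, 2 without SFB 4 and 0 with the dividing cell covariate. Of the 8 other conjugating enzymes, such as the methyltransferases, 0 were called in any of the 3 comparisons, and of 12 genes for cleavage of conjugates and esters the carboxylesterase Ces2b was called lower in SFB against NFF (-1.09).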

How the data were processed

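RNA from sorted cells was made into cDNA with SMART-seq v4 and into libraries with NexteraXT, per the labels' protocols. Neither kit adds molecular identifiers or marks strand, so amplification copies and overlapping genes were not told apart. The authors deposited 1 table of RPKM values for 11366 genes, per the file headers, from reads aligned with STAR to mm10, per the submitters' processing notes. How reads were counted, with which annotation, and what became of reads matching several genes is not stated in what was used here. Read totals are not given either, so no counting interval is printed, and sums of RPKM were 237248 to 302661 per library.

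Of the symbols, 15 had become dates and were recovered by Entrez identifier, and coordinates come from GENCODE M21 (GRCm38, the assembly mm10 names). Values were analysed as log2(RPKM + 1), which understates changes of genes near 1 RPKM. Genes with at least 1 RPKM in at least 3 libraries (10482) were fitted in R 4.3.3 with limma 3.58.1, 1 mean per group over all 11 libraries (8 residual degrees of freedom) and eBayes with a trend. A gene was called where its adjusted p (Benjamini-Hochberg, over all 10482) was under 0.05. The script was tested on simulated data. Promoters come from the RefSeq table, aligned with Biopython 1.88.

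The members, the 20 lists of other genes (326 entries, 257 in the table) and the alternatives were chosen with earlier results of these data known. Values by library were due for members called in any comparison, the 2 most abundant of each family, the 2 of lowest unadjusted p in each class and comparison, and Gstm1; Gsta3, Gstm2, Gstm5 and other members beyond these were added after their values were seen. From each other list the rule took up to 2 called genes of largest change, or the 1 of lowest p. Alternatives were 2 other pseudocounts (0.1 and 3), no filter and a filter at 3 RPKM, median ratio scaling, eBayes without a trend, a 2-group fit, a replicate block, 2 covariates, leaving out each library in turn, and leaving out Control 2, SFB 2 and SFB 4 together.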

Additional observations from a re-analysis of the deposited data

Results flagged for a closer look

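Among the members named by rule, 48 groups of 4 libraries were examined for a library far from the other 3 (a gap above 0.829 of the group's range), and 4 had one, where chance flags about 1 group in 20. Mgst3 stood at 474.8 RPKM in NFF 4, against 348.3 to 362.2 in the other NFF libraries. Mgst1 stood at 62.7 RPKM in SFB 3, against 84.9 to 88.5 in the other SFB libraries. Gstz1 was at 18.31 RPKM in NFF 2 and 15.5 to 15.7 in the others, and Gstp2 at 52.9 RPKM in NFF 2 and 58.3 to 59.0 in the others. None of these 4 genes was called in any of the 3 comparisons.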

How the results depend on the processing

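Of the 440 values that 22 alternatives gave for 20 pairs of a member and a comparison, 404 kept their direction and their side of the threshold, 25 lost their call, 8 gained one and 3 changed sign, all 3 with the dividing cell level as a covariate: Sult2b1 in NFF against Control (-0.033), and Sult1d1 (0.042) and Sult2b1 (0.21) in SFB against NFF. The cause was not tested. In SFB against Control, members called lower numbered 2, but 1 with a pseudocount of 3, with median ratio scaling and in a fit of only the 2 groups, 5 with the dividing cell covariate, and 1 to 3 when each library was left out. Of all genes, 21 were called in either direction as reported, 17 with a pseudocount of 3, 15 with median ratio scaling and 1 in the 2-group fit. They numbered 7 to 94 when each library was left out, and 189 with the dividing cell covariate (102 of them lower, against 8). In NFF against Control, 2 members were called lower with that covariate and 2 without Control 2, SFB 2 and SFB 4, against 0. Of all genes, 15 and 12 were called lower in these fits, against 0. In SFB against NFF, 1 member was called higher in a fit of only the 2 groups, with either covariate, and without those 3 libraries, against 0, and leaving out each library gave 0 to 1 called higher and 1 to 5 called lower. Genes called higher there numbered 329 as reported, 398 with the distal minus proximal covariate, 259 with the dividing cell covariate and 502 without those 3 libraries. Members lying wholly below Control numbered 9 to 17 in NFF and 12 to 19 in SFB when 1 library was left out (17 and 19 without Control 5), and 22 in SFB without the 3 libraries. Those wholly above Control numbered 1 to 4 in NFF (4 without Control 2), 4 in NFF and 2 in SFB without the 3 libraries, and members of SFB wholly above NFF 2 to 4 when 1 was left out (4 without SFB 3) and 5 without the 3. Groups of fewer libraries separate more easily for any gene, and the share over all genes was not computed for these settings. The shares given above for the full groups do not apply to these counts. These counts, those of members below 0, and the gene lists without single libraries were added after seeing the data. The titles give replicate numbers that the groups partly share, but deviations from the group means correlated between -0.30 and 0.67 over 8 same-numbered pairs, so the numbers were not taken as a pairing. With the replicate number as a block, which leaves Control 5 without weight in the differences, 0 members were called in SFB against Control (0 of all genes) Ugt2b5 was at -1.57 (limma adjusted p = 0.148), and Ugt2b36 in SFB against NFF at -0.86 (adjusted p = 0.073). Over all tested genes, calls ran from 0 to 22 in NFF against Control, 0 to 189 in SFB against Control (21 as reported) and 242 to 1000 in SFB against NFF (769 as reported). The dividing cell covariate moved the median of all genes by -0.125 in SFB against NFF. Read depth was not available, so the precision of low values such as those of Ugt1a6a or Gsta2 could not be stated.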
